A study of Capra hircus with 2 samples.

Results

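The DLK1-DIO3 region is an imprinted locus that carries one of the largest miRNA clusters of placental mammals. Its members here are 56 mature miRNAs of 590 in the deposited comparison of 2 goat natural killer (NK) cell libraries. They are the listed rows whose goat miRNA name holds one of 40 numbers known from the cluster, with any letter or arm. The 56 arms come from 41 precursor names and 32 of the 40 numbers; the other 8 numbers have no listed row and were not analysed here. The study sequenced small RNA of 1 library of NK cells separated from the uterus of female goats (uNK) and 1 library of NK cells separated from peripheral blood of female goats (pNK). The labels name no treatment in either group, and give no animal number, age, breed, stage of cycle or pregnancy, or marker used for the separation. No sequence of a member was in the sources used here, so members are described by name and order only.

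In mammals the protein-coding genes of the region, such as DLK1 and RTL1, are expressed from the paternal chromosome, whereas its long noncoding RNAs and miRNAs come from the maternal one. The miRNAs are cut from long host transcripts, so that many of them share a transcription unit. The cluster is best known for high levels in embryo, placenta, brain and mesenchymal cells. In sheep the region is also the site of the callipyge muscle phenotype.

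There was 1 library per group, so nothing here has a replicate check and no p-value between the groups was computed. Folds are ratios of reads per 1000000 reads of the library (RPM), each with an exact 95% interval (Clopper-Pearson) that rests on its read counts. These intervals cover counting error only. From the deposited values, the depth was 30063448 reads for pNK and 31780927 for uNK, of which 47.5% and 37.4% fell on listed miRNAs. The deposited table lists only miRNAs the authors called different between the libraries, so members that did not differ could not appear. Reads of different miRNAs are also captured with unequal efficiency, which was not measured here and which limits comparisons of level between members.

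All 56 members were higher in the uNK library, by a log2 RPM ratio above 1 in every case and above 2 in every case. The direction in the authors' deposited table was the same for all 56. That table holds no absolute log2 ratio under 1.01 on the authors' scale. Of its 224 miRNAs listed as higher, 213 passed the cut of 1, so passing it adds little to the direction. Of all 590 listed miRNAs, 36.1% had a log2 RPM ratio above 1, and of the 314 with a goat miRNA name 50.6% did, while 45.5% of the latter were above 2. By the direction in the authors' deposited table, 38.0% of all listed and 54.1% of the named goat miRNAs were higher. The members made up 32.9% of the 170 named miRNAs called higher there. A log2 ratio above 3 (above 8-fold) was seen in 50 of the 56 members and in 33.8% of the named goat miRNAs. The median log2 ratio over the members was 3.79, beside 1.15 over the named goat miRNAs and -2.20 over all listed miRNAs.

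Summed over the cluster, the level was 625 RPM (18787 reads) in pNK and it was 8061 RPM (256195 reads) in uNK, which is 12.9-fold higher in uNK (interval 12.7 to 13.1). The cluster took 0.131% of the listed reads in pNK (0.130 to 0.133%) and 2.16% in uNK (2.15 to 2.16%). In bulk libraries such as these, more cells that make a miRNA and more of it per cell cannot be told apart. Single members spanned a wide range of levels, from 0 to 154.3 RPM in pNK with a median of 1.18 RPM, and from 0.378 to 2378 RPM in uNK with a median of 17.5 RPM. In uNK, 12 members stood at 100 RPM or more and 53 at 1 RPM or more. In pNK these numbers were 2 and 29.

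**Figure D1:**
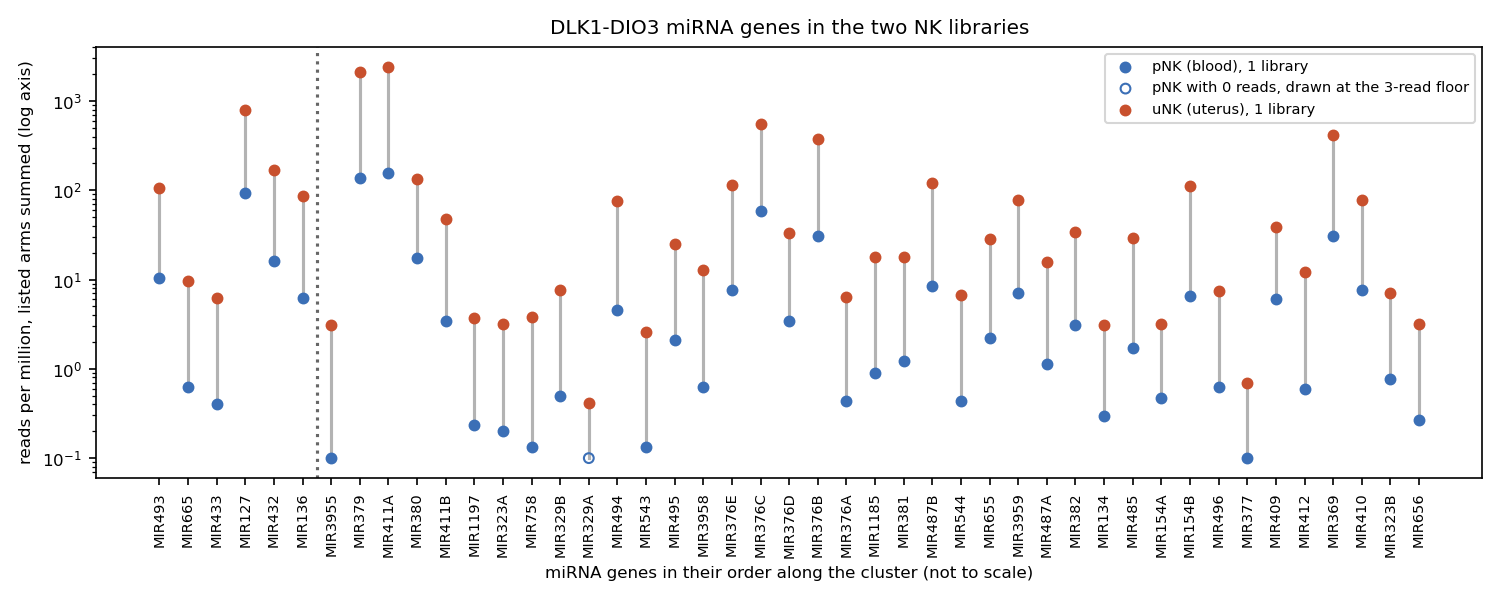
Level of each DLK1-DIO3 miRNA gene in RPM (listed arms summed, log axis) in pNK and uNK, in the order of the genes in a goat assembly and not to scale. Each grey line joins the 2 libraries of a gene; all 45 genes, 4 of them outside the naming rule, lie higher in uNK, and the dotted line separates the miR-493/miR-136 side from the rest.

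The region falls into a smaller side from miR-493 to miR-136 and a larger side from miR-379 to miR-656. All 41 precursor names could be placed in a gene table (goat assembly ARS1.2), which served only for names and gene order since no build is given for the files. That table holds 45 miRNA genes from the first to the last member gene, and each of the 45 had at least 1 listed arm. Every one of the 45 was higher in uNK, with log2 ratios of summed arms from 2.04 to 4.96, and 40 of them were above 3. The 2.04 is that of miR-329a, with 3 reads put in place of 0 in pNK. The 9 arms of the miR-493/miR-136 side had a median log2 ratio of 3.79 and the 47 arms of the miR-379/miR-410 side one of 3.81, so the medians differed by 0.03. Across the 56 arms the log2 ratio had a Spearman correlation of -0.13 with gene order, as a description of arms that share the same libraries and, in part, a transcript.

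On the miR-493/miR-136 side, 4 miRNA genes (miR-433, miR-127, miR-432 and miR-136) lie within the span of RTL1 in the gene table. In mouse, miR-127, miR-136 and miR-433 are made antisense to Rtl1, a retrotransposon-derived gene needed for the placenta, and act against its mRNA. miR-127-3p was at 93.7 RPM (2818 reads) in pNK, and at 802 RPM (25498 reads) in uNK. This most abundant arm of its side was 8.56-fold higher (8.23 to 8.90), a smaller ratio than that of most members. miR-432-5p was at 15.9 RPM in pNK, and at 168 RPM in uNK, which is 10.6-fold higher (9.63 to 11.6). Both had intervals below the fold of the summed cluster, which is weighted to its 2 leading arms, miR-411a-5p and miR-379-5p. Without those arms the summed fold was 10.8, which the interval of miR-432-5p held and that of miR-127-3p did not.

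Some rarer arms of that side lay nearer to the summed cluster, whereas miR-493-3p lay further below it. miR-136-3p, the arm of miR-136 with most reads, was at 5.82 RPM in pNK, and at 80.8 RPM in uNK, and was 13.9-fold higher (11.9 to 16.3). miR-433 had 12 pNK reads and 196 uNK reads and was 15.5-fold higher (8.65 to 30.4). miR-665 had 19 and 308 reads and was 15.3-fold higher (9.65 to 25.8). The intervals of miR-136-3p, miR-433 and miR-665 held the summed fold. Since miR-127-3p held most reads of the side, the summed level of the side was 9.28-fold higher (8.98 to 9.60), against 13.8-fold (13.6 to 14.1) for the miR-379/miR-410 side.

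On the miR-379/miR-410 side the reads were concentrated in its opening genes. In mouse, loss of this side disturbs metabolism in the newborn. miR-411a-5p was at 154.3 RPM (4638 reads) in pNK, and at 2378 RPM (75569 reads) in uNK. miR-379-5p, from the neighbouring gene, was at 135 RPM (4046 reads) and 2048 RPM (65087 reads). They were 15.4-fold (14.96 to 15.88) and 15.2-fold higher (14.7 to 15.7), and their intervals overlapped. These arms led the cluster in both libraries, with 46.2% of its reads in pNK (45.5 to 46.9%) and 54.9% in uNK (54.7 to 55.1%). Without them the summed cluster was 10.8-fold higher (10.6 to 11.0). Among the named goat miRNAs listed, they ranked 19 and 20 by uNK reads, and miR-127-3p ranked 31.

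The miR-376 genes form a run of 5 neighbours in the middle of the side. They give closely related miRNAs that in human and mouse tissues are known targets of A-to-I RNA editing. miR-376c-3p was at 54.9 RPM in pNK, and at 512 RPM in uNK, or 9.34-fold higher (8.88 to 9.83). miR-376b-3p was at 30.9 and 376.1 RPM, or 12.2-fold higher (11.4 to 13.0), and miR-376e-3p at 7.62 and 105 RPM, or 13.8-fold higher (12.1 to 15.9). The interval of miR-376c-3p lay below the other intervals of the run just given. miR-376d had 103 pNK reads and 1069 uNK reads and miR-376a 13 and 202, ratios of 9.82 (8.01 to 12.1) and 14.7 (8.40 to 28.1). How the counting shared reads among such related names is not given in the sources used here, so the value of each single name is uncertain. Summed over the 7 listed arms, the group was 10.8-fold higher (10.4 to 11.2).

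Toward the other end of the side, miR-369 was the most abundant gene. Its 3p arm, which in human cells is known to act at the AU-rich element of the mRNA of the cytokine TNF, was at 20.8 RPM in pNK, and at 271 RPM in uNK, or 13.0-fold higher (12.01 to 14.2). Its 5p arm was at 10.01 and 149 RPM, or 14.9-fold higher (13.3 to 16.8). The intervals of the arms overlapped. miR-154b-5p was at 6.35 RPM in pNK, and at 109 RPM in uNK, or 17.2-fold higher (14.9 to 19.99), and miR-487b-3p at 8.52 and 122 RPM, or 14.3-fold (12.6 to 16.3). miR-494, which lies before the miR-376 run and so not toward this end, was at 4.56 and 75.3 RPM, or 16.5-fold higher (13.9 to 19.8). miR-410-3p was at 7.55 and 77.0 RPM and was 10.2-fold higher (8.89 to 11.7). Its interval lay below the summed fold but held the 10.8-fold of the cluster without its 2 leading arms. miR-134, which in rat neurons limits dendritic spine growth through Limk1, was rare in this cluster at 9 reads in pNK and 98 in uNK, or 10.3-fold higher (5.21 to 23.2).

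Several other members of the side were of moderate level and lay close to the summed fold. miR-485-5p, known to act on the synaptic vesicle protein SV2A in rat neurons, was at 1.497 RPM (45 reads) and 27.3 RPM (868 reads) in pNK and uNK, or 18.2-fold higher (13.5 to 25.2). miR-655 had 67 pNK reads and 896 uNK reads, or 12.7-fold (9.86 to 16.5), miR-495-3p 63 and 794, or 11.9-fold (9.22 to 15.7), and miR-381 37 and 573, or 14.6-fold (10.5 to 21.02). Of these, the interval of miR-485-5p lay above the summed fold and the others held it. The minor arms of the leading genes had far fewer reads than the major arms but ratios near theirs. miR-411a-3p had 101 pNK reads and 1744 uNK reads, or 16.3-fold (13.4 to 20.2), and miR-379-3p had 108 and 2049, or 17.9-fold (14.8 to 21.99). Low members of the side, with wide intervals that held the summed fold, included miR-329b-3p at 15 and 244 reads, miR-496-3p at 19 and 235, miR-323b at 23 and 226, miR-544-5p at 13 and 212, miR-543-3p at 4 and 83, miR-656 at 8 and 100 and miR-377 at 3 and 22 reads. Their ratios ran from 6.94 for miR-377 (2.08 to 36.2) to 19.6 for miR-543-3p (7.38 to 73.7).

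**Figure D2:**
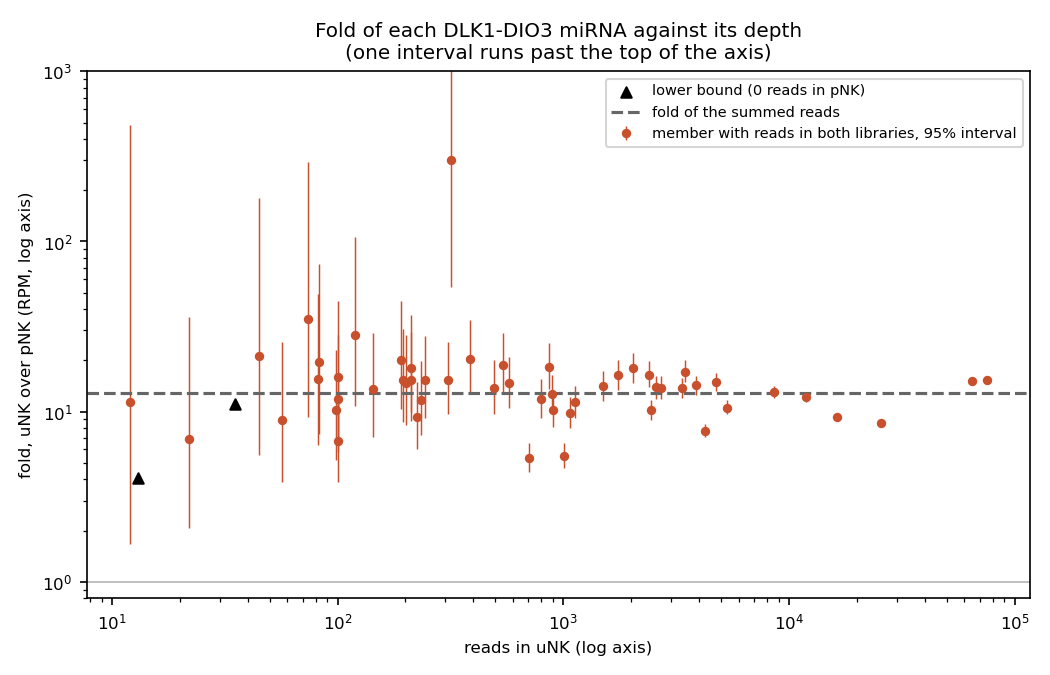
Fold of uNK over pNK for each of the 56 members (log axis) against its uNK reads (log axis), with exact 95% counting intervals; triangles are lower bounds for the 2 members with 0 pNK reads. The dashed line is the 12.9-fold of the summed reads. The intervals of 38 members hold it, 9 lie above it and 9 below it, and interval width follows the reads of each member.

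The folds of the members lay close together beside the spread of the table, though not closer than in every list of similar ratio. Of the 46 members with at least 100 uNK reads, 38 were between 8-fold and 20-fold higher, 4 were under 8-fold and 4 above 20-fold. Their log2 ratios had an interquartile range of 0.46. For the 91 other named miRNAs called higher with at least 100 reads in the higher library it was 1.65, and with at least 1000 reads the ranges were 0.56 over 22 members and 1.30 over 63 others. At 100 reads, 2 lists described below had narrower ranges, the epithelial (0.31 over 5 arms) and the muscle list (0.08 over 4). The stromal (0.82 over 11) and X-linked lists (1.13 over 6) had wider ones. For the X-linked list this depends on the measure. Its standard deviation was 0.79, against 0.82 for the members, which include miR-376e-5p at 302-fold. Counting intervals held the summed fold in 38 of the 56 members, lay above it in 9 and below it in 9. That fold is weighted to the 2 leading arms. Whether an interval holds it depends on the interval's width, which follows the reads of the member. The intervals of miR-411a-5p, miR-379-5p, miR-127-3p and miR-376c-3p, the members with most uNK reads, all missed it. The same count was not made over other miRNAs. The order of the members by reads was also close between the libraries, with a Spearman correlation of 0.97 over the 54 members read in both, as a description across members of the same 2 libraries. The 5 most abundant members were the same and in the same order in both libraries, and took 74.9% of the cluster's reads in pNK and 75.9% in uNK.

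The smallest ratios among members with at least 100 reads in the higher library belonged to 3p arms. miR-493-3p was at 4.16 RPM (125 reads) in pNK, and at 22.3 RPM (709 reads) in uNK, only 5.37-fold higher (4.43 to 6.54). miR-409-3p was at 5.75 RPM (173 reads) and 31.7 RPM (1008 reads), or 5.51-fold higher (4.69 to 6.51). Both intervals lay far below the summed fold of 12.9. miR-154a-3p, with 14 and 100 reads, was 6.76-fold higher (3.84 to 12.8). miR-380-3p, with 517 and 4233 reads, was 7.75-fold higher (7.07 to 8.50), and miR-127-3p came next.

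The largest ratios among members with at least 100 reads in the higher library rested on few pNK reads. miR-376e-5p had 1 read in pNK and 319 in uNK, a ratio of 302 with an interval from 53.8 to 11956, which lay above the summed fold. miR-758, known to repress the cholesterol transporter ABCA1 in human and mouse cells, had 4 and 120 reads, or 28.4-fold (10.8 to 106). miR-412-5p had 18 and 388 reads, or 20.4-fold (12.7 to 34.8). The intervals of miR-758 and miR-412-5p held the summed fold, as did those of miR-382-3p (9 and 192 reads, 20.2-fold, 10.4 to 44.8) and miR-1185-5p (0.898 and 17.0 RPM, 18.9-fold, 12.8 to 28.9).

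A few members were near the limit of detection in blood. miR-1185-3p and miR-329a-3p had no pNK read, against 35 and 13 reads in uNK. With 3 reads put in place of 0 (0.0998 RPM in pNK) their ratios were 11.0 and 4.10. These are nominal values, since the lower limits of their exact intervals were smaller, at 8.51 and 2.88. miR-411b-3p had 1 read in pNK and 12 in uNK, the fewest uNK reads of any member, a ratio of 11.4 (1.68 to 485.3). miR-380-5p had 2 and 74 reads and miR-432-3p 2 and 45, ratios of 35 (9.35 to 294) and 21.3 (5.56 to 181.1). At this depth their folds could not be told from the summed fold.

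Most members were nonetheless read in blood at a low level. Over the 29 members with at least 500 uNK reads, the pNK count was a median of 6.85% of the uNK count. These members were picked by reads in the library where all were higher, so the percent describes them only. The counts are not scaled for depth. The lowest was 5.01%, for miR-1185-5p, and the highest 17.6%, for miR-493-3p. In pNK, 41 members had at least 10 reads and 22 at least 100.

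A precursor gives a 5p and a 3p arm, of which usually one is kept, and their ratio is free of how the libraries are scaled. Both arms were listed, with at least 10 reads each over both libraries, for 15 member precursors. The arm with more reads was the same in both libraries in all 15, the 5p arm in 9 and the 3p arm in 6, as it was in 88 of all 94 such precursors in the table (93.6%). The log2 arm ratio (5p over 3p) was apart by 1 or more between the libraries in 6 of the 15 (40%), beside 54 of the 94 (57.4%). For the most abundant precursors the arm use was close. The 5p share of miR-411a was 97.9% in pNK (97.4 to 98.3%) and 97.7% in uNK (97.6 to 97.8%). That of miR-379 was 97.4% (96.9 to 97.9%) and 96.9% (96.8 to 97.1%).

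In 3 of the 15 the intervals of the 5p share did not overlap between the libraries, a smaller share than the 55 of 94 (58.5%) over the table; interval width follows the reads of each precursor. The 5p share of miR-376e was 0.435% in pNK (0.0110 to 2.40%) and 8.70% in uNK (7.81 to 9.66%), the largest difference in log2 arm ratio, at 3.87. miR-409 had a 5p share of 5.98% (3.02 to 10.4%) in pNK and 17.3% (15.2 to 19.6%) in uNK. miR-493 had a 5p share of 59.7% (54.0 to 65.2%) in pNK and 79.2% (77.8 to 80.6%) in uNK. In all 3 the 5p arm took a larger share in uNK. miR-380 and miR-1185 also differed by more than 1, by 1.87 and -1.86 on the log2 scale, but with 2 and 0 reads of the minor arm in pNK, and their intervals overlapped.

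**Figure D3:**
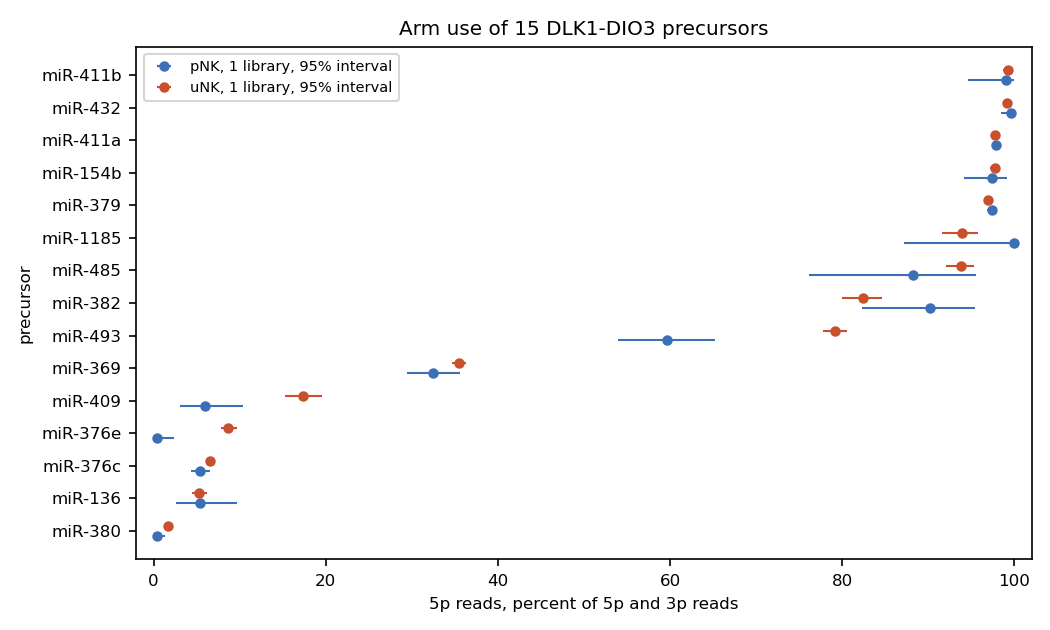
Share of the 5p arm among 5p and 3p reads (percent) for the 15 member precursors with both arms listed, in pNK and uNK, with exact 95% counting intervals. The major arm is the same in both libraries for all 15, and the intervals of miR-376e, miR-409 and miR-493 do not overlap, beside 55 of 94 over all listed precursors.

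Listed miRNAs that lie in the same cluster under other names went the same way. These were 6 arms of 4 genes (miR-1197, miR-3955, miR-3958 and miR-3959), each of them higher in uNK, and their median log2 ratio was 3.75. miR-3959-5p was at 5.22 RPM (157 reads) in pNK, and at 55.9 RPM (1776 reads) in uNK, or 10.7-fold higher (9.09 to 12.7). miR-3958-3p was at 0.632 and 12.9 RPM, or 20.4-fold higher (12.9 to 34.2). The listed miRNAs nearest to the cluster on the same chromosome lie outside it on the miR-493 end. They are miR-345 and miR-342, which were singled out after their values were seen. miR-342 is also in the lymphocyte and NK list given below. miR-345-5p was at 587 RPM in pNK, and at 69.7 RPM in uNK, or 8.41-fold lower in uNK (8.05 to 8.80), and miR-342-3p at 1168 and 79.5 RPM, or 14.7-fold lower (14.1 to 15.3). Of other imprinted miRNAs, the arms of miR-335, which sits in an intron of MEST, were listed. miR-335-5p was at 18.6 RPM in pNK, and at 31.7 RPM in uNK, or 1.71-fold higher (1.54 to 1.90). miR-335-3p had 36 pNK reads and 121 uNK reads, or 3.18-fold (2.18 to 4.75). Both ratios lay below that of every member, but both intervals overlapped that of miR-411b-3p (1.68 to 485.3). The interval of miR-335-3p also overlapped those of other members with small ratios or few reads. Among them were miR-493-3p (4.43 to 6.54), miR-409-3p (4.69 to 6.51), miR-154a-3p (3.84 to 12.8) and miR-377 (2.08 to 36.2).

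Markers of other cell types moved with the cluster. Of the listed stromal and smooth muscle miRNAs (miR-143, miR-145, miR-199 and miR-214), all 11 arms had higher levels in uNK; the median log2 ratio was 3.94, with a summed level of 12890 RPM in pNK against 191215 RPM in uNK. All 5 listed epithelial miRNAs (miR-200a, miR-200b, miR-200c, miR-141 and miR-429) were higher, with a median of 3.66 and sums of 257 and 3592 RPM. All 4 muscle miRNAs were higher, with a median of 3.72 and sums of 107 and 1329 RPM, among them miR-1, the subject of the study's title, at 11.99-fold (11.5 to 12.5). These medians and the 3.79 of the DLK1-DIO3 members lay within 0.3 of each other. The X-linked cluster of miR-424, with 6 listed arms, had a median of 3.62 and a summed fold of 12.7 (12.3 to 13.0), whose interval overlapped that of the DLK1-DIO3 cluster. The part of other cell types in the level of the cluster was not tested.

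Other marker lists went with smaller ratios or the other way. The endothelial miR-126 had both arms higher in uNK, at a median log2 ratio of 2.54 and with sums of 1769 and 10555 RPM. The 4 red cell arms of miR-451 and miR-144 had a median of 1.46, with sums of 3258 and 9817 RPM. Of the 8 listed arms of lymphocyte and NK miRNAs, 6 were lower and 2 higher in uNK, with sums of 21785 RPM in pNK against 438 RPM in uNK. miR-150, at 19052 RPM, held most of the pNK sum and was 592-fold lower in uNK (557 to 630). The 2 higher arms were miR-181d, 3.02-fold (2.76 to 3.31), and miR-181c-5p, 1.98-fold (1.86 to 2.10). Another arm of that family, miR-181b-3p, was rare, with 8 reads in pNK and 0 in uNK. Both arms of the myeloid miR-223 were lower, with sums of 28632 and 21.1 RPM. None of these miRNAs is specific to NK cells, so the label of the libraries as NK cells could not be checked from them.

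**Figure D4:**
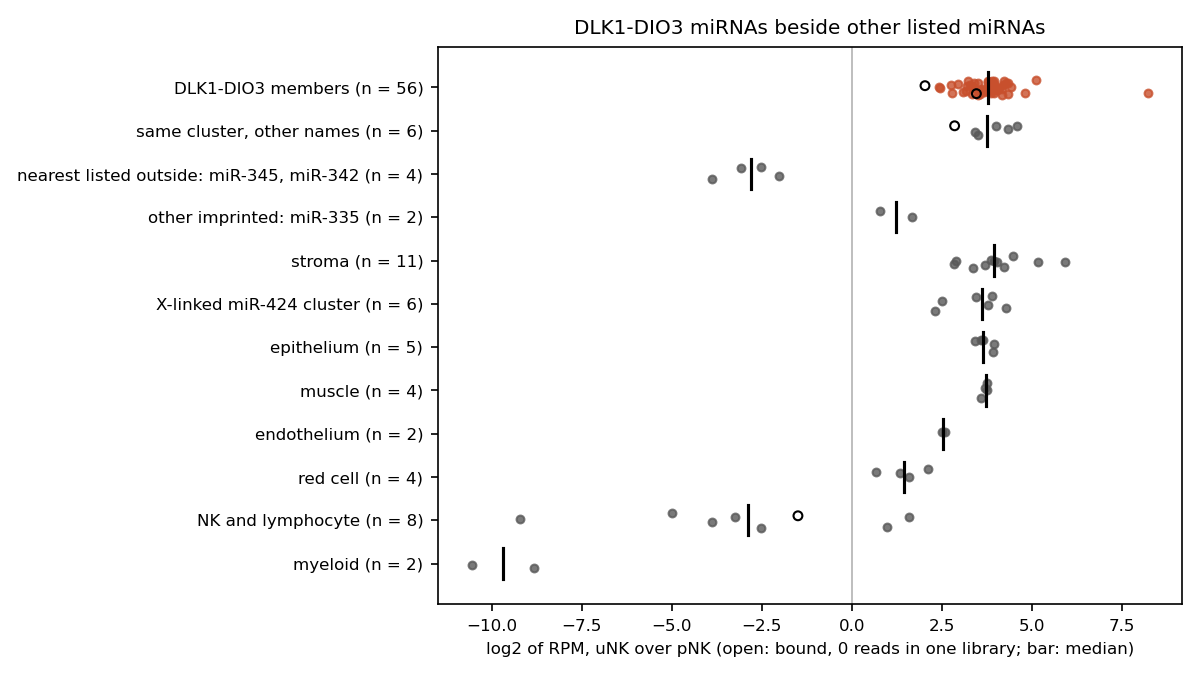
Log2 ratio of RPM, uNK over pNK, for each DLK1-DIO3 member and for arms of other listed miRNAs; points are single arms, bars are medians and open points are bounds where a library had 0 reads. The members, with a median of 3.79, sit beside the stromal, epithelial, muscle and X-linked lists, while miR-345 and miR-342, the nearest listed miRNAs outside the cluster, lie below 0. The arms of miR-342 are drawn again in the NK and lymphocyte list.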

How the data were processed

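Small RNA of 1 uNK and 1 pNK library was analysed from a table of the authors' comparison, named for DEGseq and a filter on differential expression. Per the file headers, it holds read counts. The deposited expression columns behave as RPM, with a 0 written as 0.001. The authors' log2 ratio, p-value and q-value columns are deposited too, with no absolute log2 ratio under 1.01 and no q-value above 0.000815. Per the labels' protocols, Trizol was used for extraction. The sources used here name no aligner, annotation or build.

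Library totals were taken as count divided by RPM of the most abundant miRNA, and RPM was recomputed from them. A count of 0 was set to 3 reads to give a nominal bound, beyond which the exact interval can reach. The members, lists and alternatives were chosen with earlier results of these data known. Named in full were the 12 members with most reads, the 5 largest and 5 smallest ratios at 100 reads or more, those under 3 reads in a library, and the 4 precursors with the largest difference in arm ratio (0.5 counts added); further members were named for their role, after their values were seen. Shared seeds were part of the rule and could not be listed without sequences. Intervals were tested on simulated counts with counting error only, which exact intervals cover by construction. Variation between libraries was not part of that test. Python 3.11.15, scipy 1.17.1, matplotlib 3.10.9 and, for TMM, edgeR 4.0.16 were used.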

Additional observations from a re-analysis of the deposited data

How the results depend on the processing

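No paired analysis was possible because there was a single library on each side, so that none could be left out. All 56 members kept a log2 ratio above 1 under each scaling run. Each scaling shifts every log2 ratio by the same amount (0.35 for listed totals, -0.67 for the median ratio, 0.74 for TMM). The lowest member was at 2.04, so this outcome was fixed in advance. The 46 members above 1 with a filter of 100 reads and the 41 precursors with arms summed are all that those steps left. The median log2 ratio of 3.79 became 3.12 with the median ratio, 4.53 with TMM, 2.96 with 1 RPM and 1.76 with 5 RPM added to both libraries; these scalings rest only on miRNAs called different, and the added RPM shrinks low members by construction. The median log2 ratio was 4.14 with the listed totals and 4.17 by the log2 ratios of the authors' deposited table. The difference between the medians of the sides was 0.03 under every scaling and with a filter of 10 reads. A scaling cannot change it, and that filter removed no member. It was 0.09 by the deposited log2 ratios, 0.08 with a filter of 100 reads and 0.18 with arms summed. Precursors whose arm ratio differed went from 6 of 15 to 3 of the 9 left with at least 100 reads per arm (40% and 33.3%) and to 1 at a difference of 2, and were 7 with 5 counts added. The cluster's share of uNK reads was 2.16% of the listed, 2.167% of the named goat and 0.806% of all reads. The pNK count as a percent of the uNK count had a median of 6.77 to 7.24% across its alternatives, all of which picked members by uNK reads. Depth limits the 15 members with under 10 pNK reads.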
